A study of Zea mays subsp. mays and Zea mays subsp. parviglumis and Zea luxurians with 126 samples.

Results

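The 183 regions described here are 24-PHAS loci of Zea anthers that carry a well-paired miR2275 site, and the measurement is the number of RNA 5′ ends found at the predicted cut. A site belonged to the set when the small RNA named for it contained miR2275, its target was a 24-PHAS locus, and its pairing penalty, the Allen score, was at most 3.5. A lower Allen score means fewer and milder mismatches, so 0 would be perfect pairing. The rule kept 699 of the 2375 library entries that paired miR2275 with a 24-PHAS locus, out of 92668 entries in all miRNA tables. It set no limit on reads, but a site with no reads is not listed. A locus entered only with reads in at least 1 library, so levels and stage differences are not independent of membership. For example, 19 of 28 HP301 and 18 of 25 TIL11 members were unlisted in every library of the shorter lengths compared. Each locus had 1 such site and 1 score, and the set made up 183 of the 42009 distinct sites of the series. By genome, RIL003 held 29 loci, HP301 28, B73 and Oh43 27 each, Il14H 26, TIL11 25 and TIL25 21. Of the 27 B73 loci, 18 were listed in the libraries of B73 itself, 22 in ago18HM and 27 in ago18HT.

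The 63 anther samples came from 4 maize inbred lines, 3 teosintes and an ago18 line. For the inbreds, B73 and HP301 had 2 samples at 2 mm and 2 at 0.4 mm, Il14H had 2 at 2 mm and 3 at 0.4 mm, and Oh43 had 3 at 2 mm and 2 at 0.4 mm. The 0.4-mm anthers of these lines are premeiotic and the 2-mm anthers meiotic. Among teosintes, TIL25 (Zea mays ssp. mexicana) had 3 samples at 1.5 mm and 3 at 0.4 mm. RIL003 (Zea luxurians) had 3 at 0.4 mm, 2 at 0.7 mm and 3 at 1.5 mm. TIL11 (ssp. parviglumis) had 2 at 0.4 mm and 3 each at 0.7, 1, 1.5 and 2 mm. The study's staging puts 1.5-mm anthers of TIL11 and RIL003 in meiosis, 0.4- and 0.7-mm anthers before it, and 1-mm TIL11 anthers in neither class. For TIL25 it names 2 mm as meiotic, a length not analysed here, so its 1.5-mm anthers are the later length only. ago18HM plants were homozygous for mutations in ago18a, ago18b and ago18c, the first 2 edited by CRISPR-Cas9 and the third carrying a Mu transposon, and ago18HT siblings were heterozygous for all 3. Both genotypes are mostly B73 and carry no transgene. ago18HM had 3 samples each at 0.5, 2 and 5 mm, and ago18HT had 2 at 0.5 mm and 3 each at 2 and 5 mm. No wild-type sibling of this family was analysed here. Maize was grown in a greenhouse and teosintes in a growth chamber, so species and growth conditions cannot be told apart.

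miR2275 is the trigger of the meiotic 24-nt phasiRNA pathway in grass anthers. It guides the cutting of long noncoding PHAS precursors. The 3′ fragment is copied into double-stranded RNA by RDR6 and diced into phased 24-nt small RNAs by DCL5, a Dicer found in monocots. In maize the pathway is active mainly in the tapetum as meiosis begins, and loss of DCL5 gives temperature-sensitive male sterility. AGO18 proteins belong to a grass-specific Argonaute clade known to bind reproductive phasiRNAs.

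The small RNA names in the tables distinguish several miR2275 members, and the sequences that could be matched to a name without ambiguity are shown because the pairing rule rests on them. The seed (bases 2 to 8) is in capitals.
miR2275c-3p, Il14H: uUCAGUUUccucuaauaucuca
miR2275c-3p, TIL11: uUCAGUUUccucuaauaucuca
miR2275 of miRNA precursor 177, Il14H: uUCAGUUUucuccaacaucuua
miR2275c-3p-like, Il14H: cUUGGUUUccuccaauuucuca
All are 22 nt. The Il14H and TIL11 forms of miR2275c-3p are the same sequence, assigned to 7 and 5 of the loci. The precursor-177 form, assigned to 1 locus, has the same seed and differs from miR2275c-3p at 4 positions (C9U, U13C, U16C and C21U, counted from the 5′ end, with miR2275c-3p first). The c-3p-like form, assigned to 2 loci, differs at 5 (U1C, C3U, A4G, U13C and A17U), of which C3U and A4G fall in the seed. In B73 the table names miR2275a-3p for 17 of the 27 loci and miR2275b-3p or c-3p for 5, and in RIL003 miR2275a-3p for 20 of 29.

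Levels are given in RPM, reads scaled to the size of the library. A single read was worth 0.0536 to 0.743 RPM, which puts the median depth at 7.55 M reads, the shallowest library at 1.35 M and the deepest at 18.7 M. A site with no reads is not listed, and 3 reads corresponded to 0.161 to 2.23 RPM, so levels near 1 RPM rest on a few reads. Replicates came from distinct plants. The ago18HT 2-mm replicate 3 stood apart from its group at these sites, with 1.62 RPM in all against 897 and 307 RPM in replicates 1 and 2, and likewise at weaker miR2275 sites (4.47 RPM against 1568 and 526 RPM). It had 9.96 M reads, more than the others of its group, and 484 RPM at miRNA sites outside PHAS loci, against 567 and 599 RPM. Results that rest on it are given with and without it. TIL25 0.4-mm libraries were shallow, at 1.71 to 2.56 M reads. At 0.5 mm ago18HM libraries had 1.35 to 5.40 M reads, against 6.22 to 9.06 M in ago18HT.

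The members shared features that the rule did not use. The study's locus annotation, complete for 5 of the genomes, covered 133 members, of which 132 belonged to its meiotic class of 24-PHAS loci and 1 to its premeiotic class. Those 132 were 15.9% of the 829 meiotic loci, whereas the 1 was 0.356% of the 281 premeiotic loci. With any miR2275 site counted, whatever its score, the shares were 49.6% and 1.78%. The classes were made by the study from small RNA levels of its own anther samples. Annotated members had a median length of 1427 bp, and 75 of the 133 lay in groups of 3 or more members with neighbours less than 2 Mb apart. In B73 (RefGen_v5), 10 loci lay at chr1:181489486-183047725 and 6 at chr4:4741630-4967167. Similar groups stood on chromosomes 1 and 4 of the other 4 annotated genomes (version 1 assemblies), with 7 to 11 and 4 to 6 members, and Il14H had a further 3 on chromosome 9. Length and grouping were not computed for other 24-PHAS loci, so neither is shown to be particular to the members.

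Cuts fell at nearly the same place in most loci. The cut position had a median of 583 bases from the start of the target, with quartiles at 555.5 and 672.5, and 166 of 183 (90.7%) lay between 500 and 800. At scores over 3.5, 303 of 460 sites (65.9%) did. The annotated interval alone was too short for 8 of 133 cuts. With 500 bases taken off, the extension that the study used on both sides for its motif search, 129 of 133 cuts fell inside the annotated locus. Whether the targets were extended is not stated for these tables. TIL11_24PHAS_17175 and TIL11_24PHAS_17176 start 491 bp apart, their cut positions differ by 491, and they had equal RPM in all 5 libraries that listed them, so they may be the same cut listed under 2 names, and each is counted here.

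**Figure D1:**
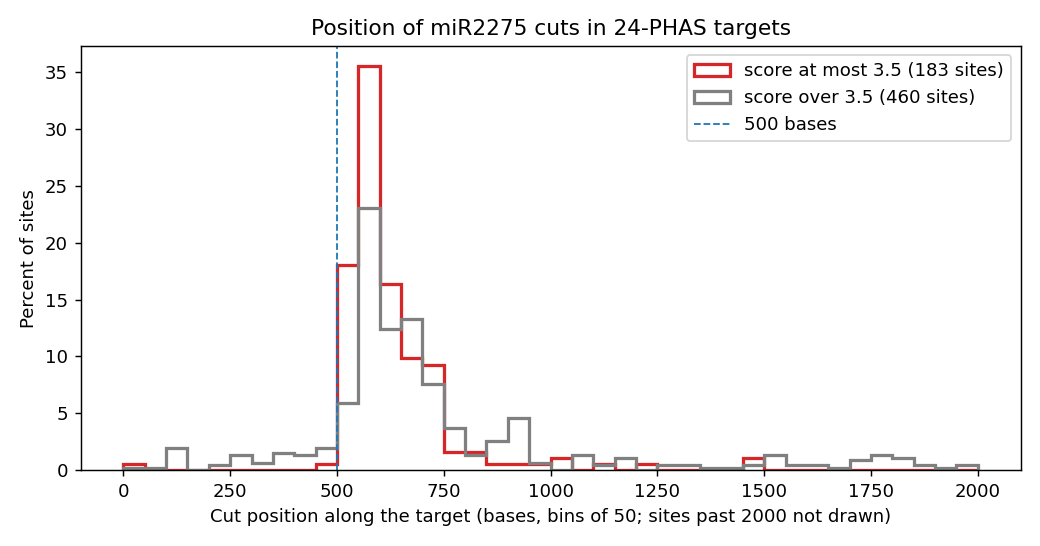
Percent of miR2275 sites on 24-PHAS targets (y axis) by cut position in bins of 50 bases (x axis), for 183 sites at a score of at most 3.5 (red) and 460 weaker sites (grey). Most of both sets lie just past 500 bases (dashed), with 90.7% and 65.9% between 500 and 800; 3 and 19 sites beyond the axis are not drawn.

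Several loci could be followed between genomes, since their most abundant small RNA was the same to the base. Of the major small RNAs of annotated members, 131 were 24 nt long and 92 of 133 (69.2%) began with A, near the 73.5% of the other 697 meiotic loci. Major RNAs were shared by member loci of all 5 annotated genomes in 2 cases, of 4 genomes in 5 and of 3 genomes in 9. The 3 printed here, with the 5′ base in capitals, were shared by 4 or 5 genomes. They belong to loci that had the highest mean of all members in at least 1 variety or in ago18HT. The major RNA of HP301_24PHAS_9755, rank 1 in HP301 (141 RPM), was shared by B73, HP301 and Oh43 only and is not printed.
chromosome 1 locus (B73_24PHAS_4228): Aagauaugauucuucucgucgaac
chromosome 5 locus (B73_24PHAS_29317): Acaugaucggacaaccacacauac
chromosome 10 locus (B73_24PHAS_53480): Aauauguugguacauugucgcucg
The chromosome 1 locus, chr1:181489486-181490424 in B73, had rank 1 of 25 members in TIL11 at 1.5 mm (619 RPM on average). At 2 mm it had rank 2 of 26 in Il14H (46.5 RPM), rank 3 of 28 in HP301 (103 RPM), rank 2 of 27 in ago18HT (48.0 RPM), rank 3 of 18 in B73 (0.518 RPM) and rank 12 of 27 in Oh43 (1.22 RPM). Its HP301 copy, HP301_24PHAS_1964 (chr1:178797847-178798866), is the only member of the premeiotic class, while its copies in the other 4 genomes are in the meiotic class. At 2 mm it had 35.2 and 170 RPM in HP301, against 0.0948 RPM in 1 library and no listing in the other at 0.4 mm. Reads at the cut of this locus were therefore scarce in premeiotic HP301 anthers, as at the meiotic-class members. The chromosome 5 locus (chr5:72206311-72207739 in B73) had rank 1 in ago18HT (53.6 RPM), rank 2 in HP301 (113 RPM) and in B73 (0.958 RPM), rank 4 in Il14H (29.9 RPM) and rank 7 in Oh43 (1.98 RPM). The chromosome 10 locus (chr10:76653698-76654839 in B73) had rank 1 in Il14H (49.9 RPM) but rank 4 in B73 (0.477 RPM), rank 9 in Oh43 (1.60 RPM), rank 11 in ago18HT (13.0 RPM) and rank 14 in HP301 (22.7 RPM) and in TIL11 (67.5 RPM). The rank of these loci thus differed between varieties, and RPM levels between varieties were not tested.

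Within a variety the loci kept their order between replicates where levels were high. Spearman's rho over the loci of a group was 0.982 in HP301 2 mm (28 loci), 0.943 in Il14H 2 mm (26), 0.968 to 0.990 in TIL11 1.5 mm (25), 0.882 to 0.973 in TIL25 1.5 mm (21), 0.840 to 0.945 in RIL003 1.5 mm (29) and 0.727 to 0.894 in Oh43 2 mm (27). It was 0.536 over the 18 loci of B73 at 2 mm. In ago18HT at 2 mm it was 0.973 between replicates 1 and 2 (27 loci), and replicate 3 had 0.523 and 0.475 with them, against 0.0927, 0.145 and 0.0305 with the ago18HM 2-mm replicates. The ago18HM 2-mm replicates had only 0.173 to 0.307 among themselves. With ago18HT replicates 1 and 2, ago18HM replicate 1 had 0.501 and 0.509, and ago18HM replicates 2 and 3 had 0.135 to 0.233. The order of loci therefore does not place ago18HT replicate 3 with either genotype. These values are a description, since loci share libraries and neighbouring loci can share reads. The 3 loci with the highest mean RPM held 28.8% (RIL003) to 50.2% (B73) of the RPM of their group.

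Most entries passed the cut-site test of the authors' pipeline. An adjusted p below 0.05 was given to 608 of 699 member entries (87.0%), whereas 11% of all entries in the miRNA tables passed. The p combines reads with the Allen score, so part of this difference comes with the rule. Of the 183 loci, 180 passed in at least 1 library. The 3 that never passed were HP301_24PHAS_1971, Il14H_24PHAS_2406 and TIL25_24PHAS_1834. Reads alone did not decide it, as HP301_24PHAS_1971 had 2.79 and 13.1 RPM in the 2-mm libraries, with adjusted p = 0.306 and 0.285.

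The first comparison asked how levels at the cuts differed between meiotic and premeiotic anthers. In HP301 and Il14H the sites had far higher levels at 2 mm. Summed over members, HP301 had 445 and 1647 RPM at 2 mm, against 1.81 and 1.15 RPM at 0.4 mm. Il14H had 185 and 515 RPM at 2 mm, against 0.526 and 0.173 RPM in replicates 3 and 5 at 0.4 mm and no listed member in replicate 4. The stages did not overlap in either line. In whole anthers, fewer cells of a type and less RNA per cell cannot be told apart. Levels at a cut can also follow the amount of precursor, which was not used here, so they are not rates of cutting. All 28 HP301 members were listed at 2 mm, and 19 of them in neither 0.4-mm library. HP301_24PHAS_9755 had 55.3 and 227 RPM at 2 mm and was not listed at 0.4 mm. HP301_24PHAS_13607, the HP301 copy of the chromosome 5 locus, had 43.5 and 183 RPM at 2 mm, against 0.330 and 0.284 RPM at 0.4 mm. Il14H_24PHAS_28195, the chromosome 10 locus, had 51.1 and 48.7 RPM at 2 mm with no listing in 3 libraries at 0.4 mm. Il14H_24PHAS_13824 had 20.4 and 68.2 RPM at 2 mm and was likewise absent at 0.4 mm. Il14H_24PHAS_2401 had 13.1 and 79.9 RPM at 2 mm, against 0.0865 RPM in 1 of 3 libraries at 0.4 mm.

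limma, fitted to log2(RPM + 0.5) of all sites and adjusted by Benjamini-Hochberg, called 19 of the 27 HP301 members tested higher at 2 mm and none lower, whereas 4.29% of 1352 sites were called higher. The median member difference was 5.13 on the log2 scale, against 0.00 over all sites. In Il14H 17 of 23 members tested were called higher, where 5.28% of 1251 sites were, with medians of 4.06 and -0.05. HP301_24PHAS_9755 differed by 7.82 (SE 0.985, adjusted p = 0.0233), HP301_24PHAS_1964 by 7.16 (SE 1.00, adjusted p = 0.0255) and Il14H_24PHAS_28195 by 6.66 (SE 0.134, adjusted p = 1.88e-06). Only sites listed in at least 2 libraries were tested, and most members met this through the 2-mm libraries, so these counts are a description of where reads lie. With every listed site tested, 24 of 28 and 21 of 26 members were called. Leaving out 1 library moved these counts to between 8 and 13 in HP301, with 8 without either 2-mm replicate, and to between 4 and 13 in Il14H, where the 2-mm libraries mattered most (5 without replicate 3, 4 without replicate 4) and leaving out 0.4-mm replicate 4 gave 11.

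Oh43 and B73 showed much lower levels at 2 mm. Oh43 members summed to 8.45, 46.2 and 45.4 RPM at 2 mm, against 0.151 and 1.37 RPM at 0.4 mm, and B73 members to 7.35 and 2.42 RPM at 2 mm, against 0.950 and 0.0764 RPM at 0.4 mm. The stages did not overlap, but the B73 2-mm sums lay within the range of the TIL25 and RIL003 sums at 0.4 mm (0.423 to 20.7 RPM). Oh43_24PHAS_35632 had 0.634, 6.26 and 5.37 RPM at 2 mm, against 0.106 RPM in 1 of 2 libraries at 0.4 mm. Oh43_24PHAS_15446, which shares its major RNA with the top HP301 locus, had 0.996, 5.57 and 3.73 RPM at 2 mm, against 0.211 RPM in 1 of 2 libraries at 0.4 mm. Oh43_24PHAS_15452 had 0.634, 5.29 and 5.33 RPM at 2 mm and was not listed at 0.4 mm. Replicate 1 was the lowest of the 2-mm libraries at all 3. In Oh43 limma called 5 of 22 members tested higher, against 2.43% of 1438 sites, with a median difference of 1.65 beside -0.04 over all sites. Those called were Oh43_24PHAS_15446 (2.50, SE 0.597, adjusted p = 0.0361) and, named after their values were seen, Oh43_24PHAS_3207, Oh43_24PHAS_4598, Oh43_24PHAS_39105 and Oh43_24PHAS_3166, the Oh43 copy of the chromosome 1 locus. Oh43_24PHAS_15452 (2.75, adjusted p = 0.0507) and Oh43_24PHAS_35632 (2.69, adjusted p = 0.0687) were not called. Of the 27 Oh43 members, 20 were unlisted in both 0.4-mm libraries. Most of those tested met the filter on listing through 2 mm, so the count describes where reads lie. The count was 14 with every listed site tested, 14 without 2-mm replicate 1, 2 without 2-mm replicate 2 or 3, and 0 without either 0.4-mm library.

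In B73 none of the 8 members tested was called in either direction by limma, 1 had an unadjusted p below 0.05, and 0.669% of 2242 sites were called higher. The other 10 of the 18 B73 members were listed in 1 library only. The first of the B73 loci at 2 mm, B73_24PHAS_6282 (chr1:251014437-251015898), had 0.337 and 1.62 RPM at 2 mm and was not listed at 0.4 mm. B73_24PHAS_29317 had 1.69 and 0.231 RPM and B73_24PHAS_4228 had 0.805 and 0.231 RPM at 2 mm, and neither was listed at 0.4 mm. The replicates thus put different loci first.

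**Figure D2:**
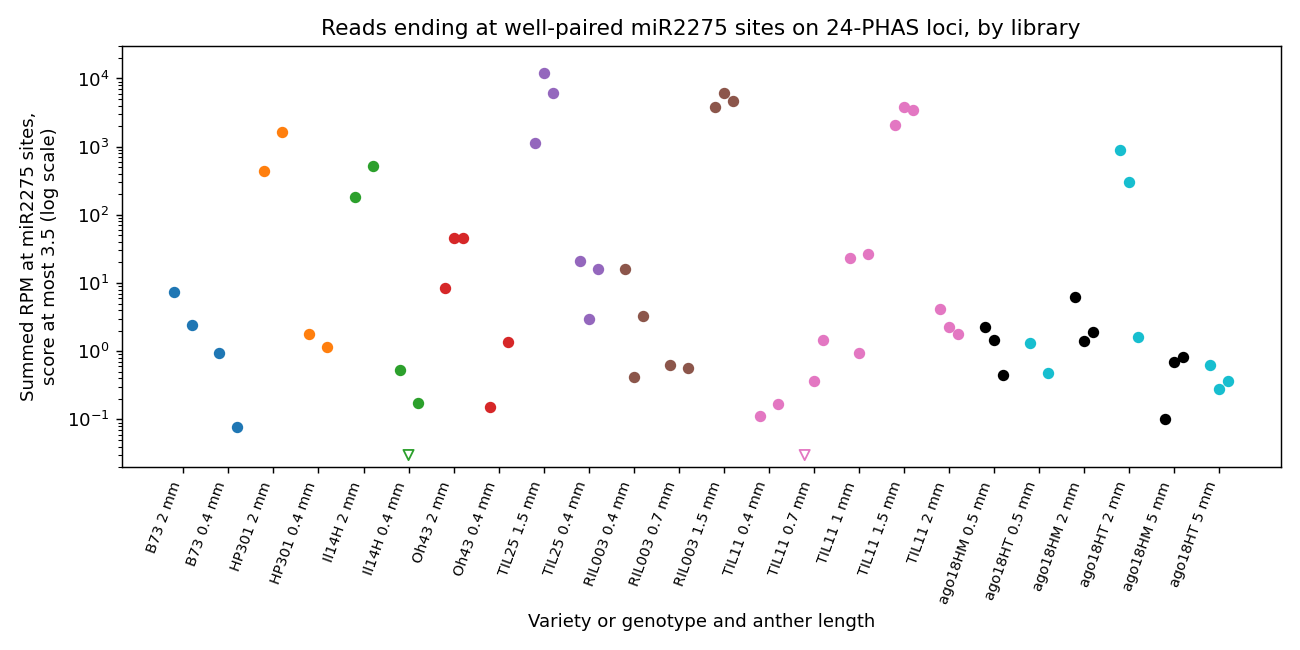
Summed RPM at well-paired miR2275 sites (y axis, log scale) in each of the 63 libraries, by variety or genotype and anther length (x axis); each point is 1 library, and open triangles mark the 2 libraries with no listed site. The 1.5-mm libraries of TIL25, RIL003 and TIL11 lie between 1115 and 12009.7 RPM, and ago18HT 2 mm spans 1.62 to 897 RPM.

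In the teosintes the sums were high at 1.5 mm. TIL25 members summed to 1115, 12009.7 and 6059 RPM at 1.5 mm, against 20.7, 2.93 and 16.2 RPM at 0.4 mm. RIL003 members summed to 15.9, 0.423 and 3.25 RPM at 0.4 mm, 0.624 and 0.561 RPM at 0.7 mm and 3804, 6130.4 and 4647 RPM at 1.5 mm. Neither showed overlap between 1.5 mm and the shorter anthers. TIL25_24PHAS_1832 had 196, 2219.9 and 1169 RPM at 1.5 mm, against 5.07, 1.76 and 3.57 RPM at 0.4 mm. TIL25_24PHAS_9359 had 87.9, 1654 and 862 RPM at 1.5 mm, against 2.34 RPM in 1 of 3 libraries at 0.4 mm. TIL25_24PHAS_1865 had 171, 1512 and 630.5 RPM at 1.5 mm, against 0.781, 0.586 and 0.841 RPM at 0.4 mm. Replicate 1 was the lowest 1.5-mm library at each. RIL003_24PHAS_14429 had 1.34 and 0.612 RPM in 2 of 3 libraries at 0.4 mm, was unlisted at 0.7 mm, and had 268, 847 and 485 RPM at 1.5 mm. RIL003_24PHAS_7249 was listed below 1.5 mm in 1 library only, with 2.00 RPM at 0.4 mm, and had 487, 573 and 454 RPM at 1.5 mm. RIL003_24PHAS_14434 had 0.668 RPM in 1 library at 0.4 mm and 169.6, 431 and 483 RPM at 1.5 mm.

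By limma, 17 of 20 TIL25 members tested were higher at 1.5 mm than at 0.4 mm, against 9.56% of 1161 sites, with medians of 7.72 and 0.34. In RIL003 26 of 28 were higher at 1.5 mm than the mean of 0.4 and 0.7 mm, against 12.1% of 1567 sites, with medians of 7.75 and -0.01. TIL25_24PHAS_9359 differed by 9.13 (SE 1.26, adjusted p = 0.000397) and RIL003_24PHAS_7249 by 9.59 (SE 0.511, adjusted p = 1.28e-07). The 2 RIL003 members that did not pass were RIL003_24PHAS_3369 and RIL003_24PHAS_45. In both varieties nearly all members tested were listed in every 1.5-mm library. They met the filter on listing there, so these counts also describe where reads lie. At miRNA sites outside PHAS loci, RIL003 libraries held 14649 to 21368 RPM at 1.5 mm, against 471 to 864 RPM at the shorter lengths, and the part of this in the RIL003 result was not tested. Leaving out 1 library gave 15 to 20 members in TIL25 and 25 to 27 in RIL003.

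TIL11 gave the only course over 5 lengths, and the sites peaked at 1.5 mm. Members summed to 0.111 and 0.169 RPM at 0.4 mm. At 0.7 mm they summed to 0.366 and 1.45 RPM in 2 libraries, with none listed in replicate 1. At 1 mm they summed to 23.3, 0.935 and 26.6 RPM, at 1.5 mm to 2095, 3844 and 3502 RPM, and at 2 mm to 4.12, 2.27 and 1.81 RPM. The 1.5-mm libraries thus stood above all others, and 2-mm levels fell within the spread of the 1-mm libraries although both 1.5 and 2 mm are meiotic lengths. TIL11_24PHAS_3386, the chromosome 1 locus, was unlisted at 0.4 mm and had 0.181 RPM in 1 library at 0.7 mm. It had 2.07, 0.0935 and 1.29 RPM at 1 mm, 416, 759 and 682 RPM at 1.5 mm and 0.568 RPM in 1 library at 2 mm. TIL11_24PHAS_3429 was first listed at 1 mm (2.02 and 0.163 RPM in 2 libraries), had 196, 329.9 and 298 RPM at 1.5 mm, and 0.151 RPM in 1 library at 2 mm. TIL11_24PHAS_43366 had 0.435, 0.187 and 2.29 RPM at 1 mm, 141, 337 and 281 RPM at 1.5 mm, and 0.142 RPM in 1 library at 2 mm.

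Of the 25 TIL11 members, limma called 23 higher at 1.5 mm than the mean of 0.4 and 0.7 mm, against 2.8% of 4000 sites, and 23 lower at 2 mm than at 1.5 mm, against 2.33%. The median differences were 7.22 and -7.29, beside -0.04 and 0.00 over all sites. Both comparisons share the 1.5-mm libraries, so a site high there moves in opposite directions in them by construction. Of the 25 members, 18 were unlisted in every 0.4- and 0.7-mm library and 7 in every 2-mm library. Most met the filter on listing through 1.5 mm, so both counts describe where reads lie. TIL11_24PHAS_3386 differed by 10.15 (SE 0.409) between 1.5 mm and the shorter anthers and by -9.86 between 2 and 1.5 mm (adjusted p = 2.74e-13). Leaving out any 1 library left the count at 23 in both. TIL11_24PHAS_5052 and TIL11_24PHAS_17180 passed in neither comparison. TIL11_24PHAS_5052, named after its values were seen, was unlisted at 0.4 mm and had no peak at 1.5 mm, with 0.244 and 0.544 RPM in 2 libraries at 0.7 mm, 0.435, 0.654 and 1.96 RPM at 1 mm, 0.264, 1.50 and 0.708 RPM at 1.5 mm and 0.853 and 1.44 RPM in 2 libraries at 2 mm.

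Members passing in more than 1 replicate of the shortest anthers were most numerous in TIL25. Loci that passed the cut-site test in at least 2 replicates of the shortest length numbered 9 of the 17 listed there in TIL25, where 8.15% of all listed sites did so. They numbered 5 of 20 in RIL003 (9.9% of sites), 3 of 9 in HP301 (6.3%), 1 of 4 in B73 (3.33%) and 1 of 10 in ago18HM (3.55%). There were 0 of 5 in Il14H (8.31%), 0 of 7 in Oh43 (7.53%), 0 of 2 in TIL11 (4.2%) and 0 of 8 in ago18HT (3.42%). The test uses the score, as above, so these shares are not independent of the rule. TIL25, RIL003, Il14H and ago18HM had 3 libraries at the shortest length and the others 2, so the counts are not on equal terms. In TIL25 they included TIL25_24PHAS_1832, TIL25_24PHAS_6026 (2.34 and 2.10 RPM in 2 libraries), TIL25_24PHAS_9362 (1.56 and 2.10 RPM), TIL25_24PHAS_9354 (1.95 and 0.841 RPM) and TIL25_24PHAS_22628 (0.390 and 2.10 RPM). Here 1 read was worth 0.390 RPM or more, so these are counts of a few reads. In RIL003 they were RIL003_24PHAS_2337 (1.78 and 0.799 RPM), RIL003_24PHAS_14429, RIL003_24PHAS_14437 (1.11 and 0.612 RPM), RIL003_24PHAS_2375 (0.890 and 0.306 RPM) and RIL003_24PHAS_29579 (0.445 and 0.612 RPM), in replicates 1 and 3 in each case. The 0.4-mm replicate 1 of RIL003 listed 19 members, against 1 and 6 in replicates 2 and 3. In HP301 they were HP301_24PHAS_13607, HP301_24PHAS_2011 (0.489 and 0.0103 RPM) and HP301_24PHAS_1998 (0.330 and 0.0948 RPM). B73_24PHAS_4277 passed at 0.0197 and 0.0764 RPM in B73, which is 1 read or a fraction of it. Each of the TIL25, RIL003 and HP301 loci named here was called higher at the longest length by limma.

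At 2 mm the sites had low levels in all 3 ago18HM libraries, and high levels in 2 of 3 ago18HT libraries. Summed over the 27 loci, ago18HM had 2.23, 1.48 and 0.451 RPM at 0.5 mm and ago18HT 1.31 and 0.482 RPM. At 2 mm ago18HM had 6.14, 1.42 and 1.88 RPM, against 897, 307 and 1.62 RPM in ago18HT. At 5 mm ago18HM had 0.10, 0.699 and 0.823 RPM, against 0.627, 0.279 and 0.368 RPM in ago18HT. At 2 mm the 3 mutant libraries had 58.0, 17.1 and 15.0 reads at these sites, whereas ago18HT had 6677.5, 2461 and 16.1, so the third heterozygous library lay inside the mutant range. The genotypes overlapped at all 3 lengths.

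Single loci showed the same pattern. B73_24PHAS_29317 had 0.635, 0.333 and 1.00 RPM in ago18HM at 2 mm, against 128, 32.1 and 0.301 RPM in ago18HT. B73_24PHAS_4228 had 0.0831 RPM in 1 ago18HM library, against 97.2, 46.7 and 0.10 RPM in ago18HT. B73_24PHAS_48860 (chr9:26391380-26392661) had 0.635 RPM in 1 ago18HM library, against 84.5, 34.9 and 0.10 RPM in ago18HT, and was not listed in B73. In each the third ago18HT library lay at or below the listed mutant values or close to them. Conversely B73_24PHAS_6282, first in B73, had 0.166 RPM in 1 ago18HM library and 0.403, 0.250 and 0.10 RPM in ago18HT at 2 mm. B73_24PHAS_21180, singled out after its values were seen, was the 1 locus of 27 with no listing in ago18HT at 2 mm, and it had 0.251 RPM in 1 ago18HM library. At 0.5 mm B73_24PHAS_4279 had 0.743 and 0.185 RPM in 2 ago18HM libraries, 1 read in each, and no listing in ago18HT. B73_24PHAS_21195 had 0.743 RPM (1 read) in 1 ago18HM library only, and B73_24PHAS_4277 had 0.552 RPM in 1 ago18HT library only. At 5 mm B73_24PHAS_4228 had 0.525 and 0.617 RPM in 2 ago18HM libraries, against 0.125 and 0.139 RPM in 2 ago18HT libraries. B73_24PHAS_21195 had 0.10 and 0.175 RPM in 2 ago18HM libraries, against 0.125 RPM in 1 ago18HT library, and B73_24PHAS_53480 had 0.251 RPM in 1 ago18HT library.

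**Figure D3:**
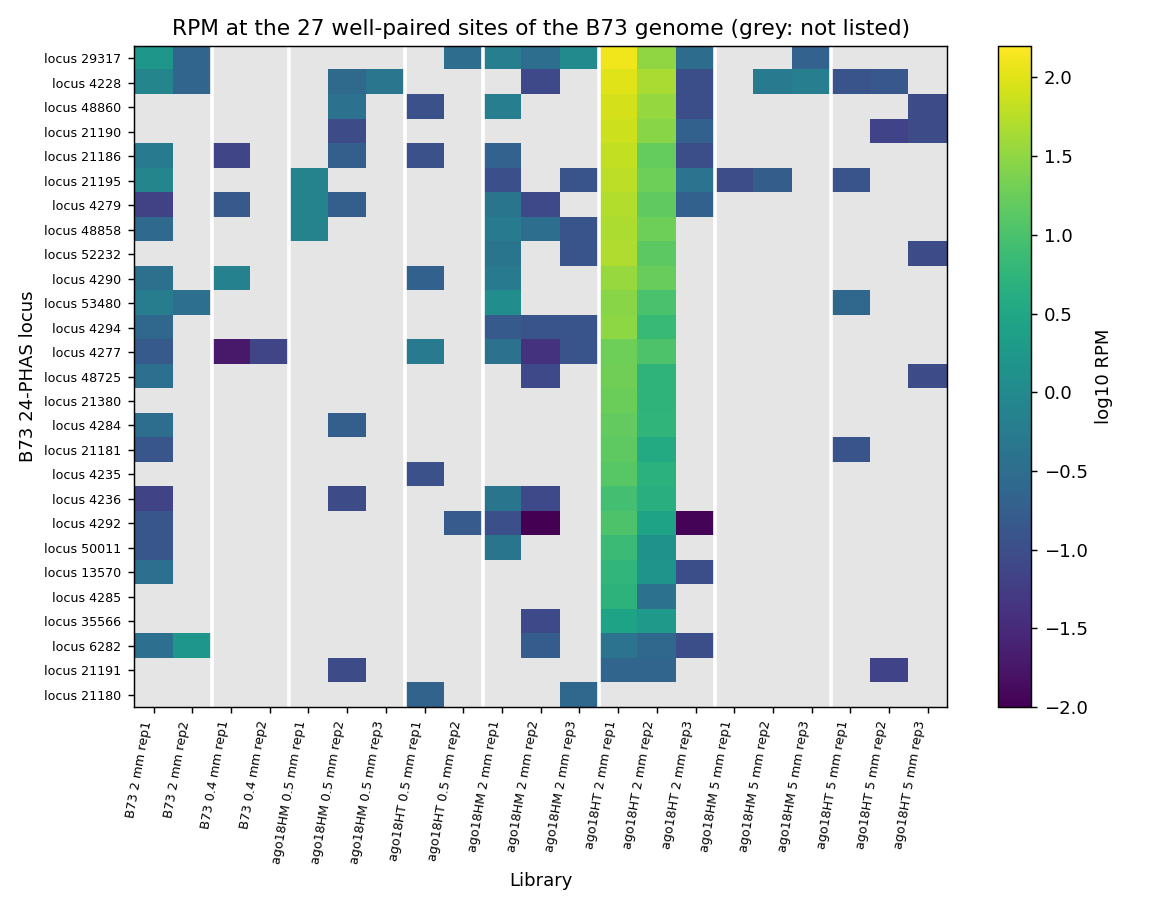
RPM on a log10 scale (colour) at the 27 well-paired sites of the B73 genome (rows, by mean RPM in ago18HT 2 mm) in each library of B73 and ago18 (columns); grey means not listed. ago18HT 2 mm replicates 1 and 2, with 26 listed loci each and 897 and 307 RPM in all, hold the high values, while replicate 3 (10 loci, 1.62 RPM) has a sum within the range of the ago18HM 2-mm columns.

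By limma over 6185 sites, 0 of 27 members differed between ago18HM and ago18HT at 2 mm, although 26 had an unadjusted p below 0.05 and 26 were lower in ago18HM. The median member difference was -2.87, beside 0.00 over all sites, and 0.0162% of sites were called lower. B73_24PHAS_4228 differed by -4.74 (SE 1.13, adjusted p = 0.144), B73_24PHAS_48860 by -4.21 (SE 1.09, adjusted p = 0.144) and B73_24PHAS_29317 by -3.74 (SE 1.08, adjusted p = 0.195). Without ago18HT 2-mm replicate 3, an alternative set after the data were seen, 24 of 27 members were called lower in ago18HM, where 1.95% of 5788 sites were, with a median of -4.41. With all libraries kept and values centred on 16 sites outside PHAS loci, 24 were also called lower, beside 1.15% of sites, and the median over all sites moved to -0.38. The call therefore turns on 1 library and on the scaling, and which of the 3 heterozygous libraries is typical cannot be told from these data. Of the 27 members, 8 were unlisted in every ago18HM 2-mm library and 1 in every ago18HT 2-mm library. Some met the filter on listing only through ago18HT at 2 mm, so these counts and p-values describe where reads lie. At 0.5 mm 0 members were called, 0 at an unadjusted p below 0.05, and 1.81% of sites were called lower in ago18HM. At 5 mm limma called 0 members, 0 at an unadjusted p below 0.05, and 0% of sites. Most values at these lengths lay at a few reads or none.

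Along development in ago18HT, limma called 8 of 27 members higher at 2 mm than at 0.5 mm, where 0.857% of sites were, and 26 of 27 (2.97% of sites) without 2-mm replicate 3. The median difference was 2.94 with that library and 4.41 without it. Of the 27 members, 19 were unlisted in both 0.5-mm libraries, so most met the filter on listing through 2 mm and the count describes where reads lie. With every listed site tested, 0 were called in this comparison and 0 between 5 and 2 mm, while centring as above gave 26 and 24. B73_24PHAS_21195 had the lowest p (4.35, SE 1.04, adjusted p = 0.0155). Without any 1 of the other 4 ago18HT libraries of this comparison (2-mm replicates 1 and 2, both 0.5-mm replicates), 0 members were called. Between 5 and 2 mm, 1 member (B73_24PHAS_21195, -4.25, SE 0.931, adjusted p = 0.0499) was called lower at 5 mm, where 0.259% of sites were, 25 (3.04% of sites) without replicate 3, and 0 without any 1 other library of the comparison. In ago18HM 0 members were called higher at 2 mm than at 0.5 mm (0.517% of sites), 0 at an unadjusted p below 0.05, with a median difference of 0.07. Likewise 0 were called lower at 5 mm than at 2 mm (0.42% of sites), 0 at an unadjusted p below 0.05. Whether the change from 0.5 to 2 mm differed between genotypes was not tested on its own. B73 at 2 mm, with 7.35 and 2.42 RPM, lay nearer to ago18HM and to the third ago18HT library than to the first 2 ago18HT libraries, but these are separate sets of plants and were not compared by a test.

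**Figure D4:**
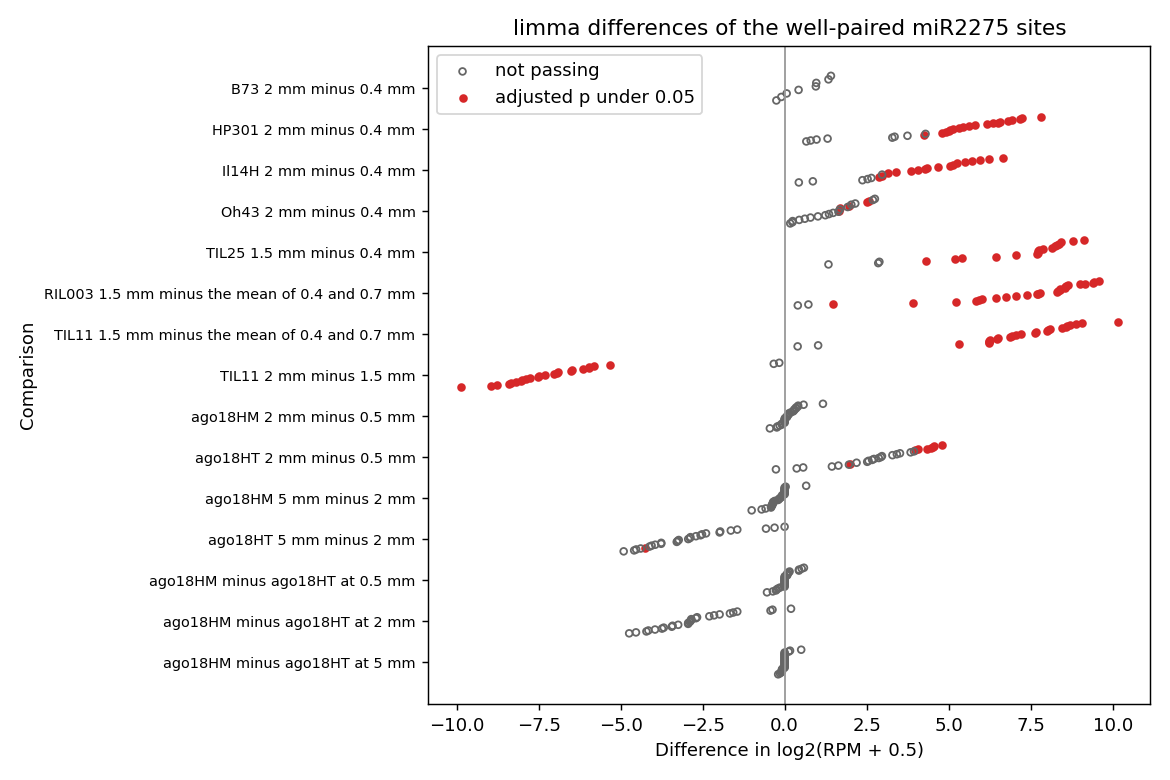
Difference in log2(RPM + 0.5) of each member tested (x axis) in each comparison (y axis); red points have an adjusted p below 0.05 in limma, open points do not. Members lie far to the right in HP301, Il14H, TIL25, RIL003 and TIL11 (medians 4.06 to 7.75), to the left in TIL11 2 mm minus 1.5 mm, and no point is red where ago18HM is set against ago18HT.

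Among the members, the score class with the highest median level differed between varieties. In Oh43 at 2 mm the median over sites was highest at score 1 (2.09 RPM, 2 sites) and lowest at 3.5 (0.811 RPM, 5 sites). In Il14H at 2 mm it was 12.4 RPM at 1, 14.1 RPM at 2, 9.14 RPM at 2.5, 6.46 RPM at 3 and 5.68 RPM at 3.5. In HP301 at 2 mm it was 6.09 RPM at 2, 18.7 RPM at 2.5, 29.5 RPM at 3 and 24.0 RPM at 3.5. In RIL003 at 1.5 mm the median was highest at 3.5 (278 RPM, 7 sites), and in TIL25 (281 RPM) and TIL11 (159.7 RPM) at 1.5 mm it was highest at 3. Of the 183 loci, 5 had score 1, 13 score 2, 44 score 2.5, 84 score 3 and 37 score 3.5, so the best classes are small. Of the 5 score-1 loci, Oh43_24PHAS_35632 had the highest mean of its variety (4.09 RPM), but Oh43_24PHAS_25630 had 0.0976 RPM. Il14H_24PHAS_25835 and Il14H_24PHAS_18561 had 20.3 and 4.59 RPM, and RIL003_24PHAS_29579 had 136 RPM, the median of its variety. Just inside the limit, the 37 sites at 3.5 had highest values between 0.278 and 843 RPM (median 48.0), for example TIL25_24PHAS_9356 (843 RPM) and TIL25_24PHAS_9354 (729 RPM). Just outside it, the 124 sites at 4 had highest values between 0.00672 and 1824 RPM (median 10.4), for example TIL25_24PHAS_11473 (1824 RPM) and TIL25_24PHAS_1836 (694 RPM).

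Weaker miR2275 sites on 24-PHAS loci were cut in the same groups. With all weaker scores pooled, their medians were lower in every variety and in ago18HT. At 2 mm the medians of members and weaker sites were 7.37 and 2.81 RPM in Il14H and 0.897 and 0.399 RPM in Oh43. They were 0.165 and 0.116 RPM in B73 and 8.32 and 5.93 RPM in ago18HT. Over sites, members had a median of 21.4 RPM in HP301 2 mm, against 4.32 RPM for weaker sites, 80.5 against 35.9 RPM in TIL11 1.5 mm, 136 against 91.0 RPM in RIL003 1.5 mm and 205 against 100.4 RPM in TIL25 1.5 mm. Some weaker score classes exceeded the member median. At score 6 the median was 9.66 RPM in Il14H and 148 RPM in RIL003. At 4.5 it was 260 RPM in TIL25 and 0.191 RPM in B73. At 5 it was 16.9 RPM in ago18HT and 1.37 RPM in Oh43. HP301 and TIL11 had no such class, and most other weaker classes lay below the member median. The single site with the highest mean RPM was a member in TIL11 and TIL25. It was a weaker site in HP301, Il14H, Oh43, B73, RIL003 and ago18HT. Members held 30.7 to 39.0% of all miR2275 reads on 24-PHAS loci in HP301 2 mm and 36.0 to 38.8% in TIL11 1.5 mm. Well-paired miR2118 sites on 21-PHAS loci, whose phasiRNAs are made before meiosis in maize, had the opposite course in HP301, with 1.61 and 2.77 RPM at 2 mm, against 195 and 196 RPM at 0.4 mm. In TIL25 they did not separate the lengths, with 64.3 to 128 RPM at 1.5 mm, against 69.5 to 79.1 RPM at 0.4 mm. In ago18 they separated 2 from 0.5 mm in every library, the third ago18HT 2-mm library included, but not 5 from 2 mm. They had 0.0831 to 0.212 RPM in ago18HM and 0.402 to 1.03 RPM in ago18HT at 2 mm, against 68.0 to 87.5 RPM and 143 to 201 RPM at 0.5 mm. At 5 mm they had 0.350 and 1.10 RPM in 2 ago18HM libraries, against 0.564 and 0.368 RPM in 2 ago18HT libraries, with no listed site in the other library of each.

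**Figure D5:**
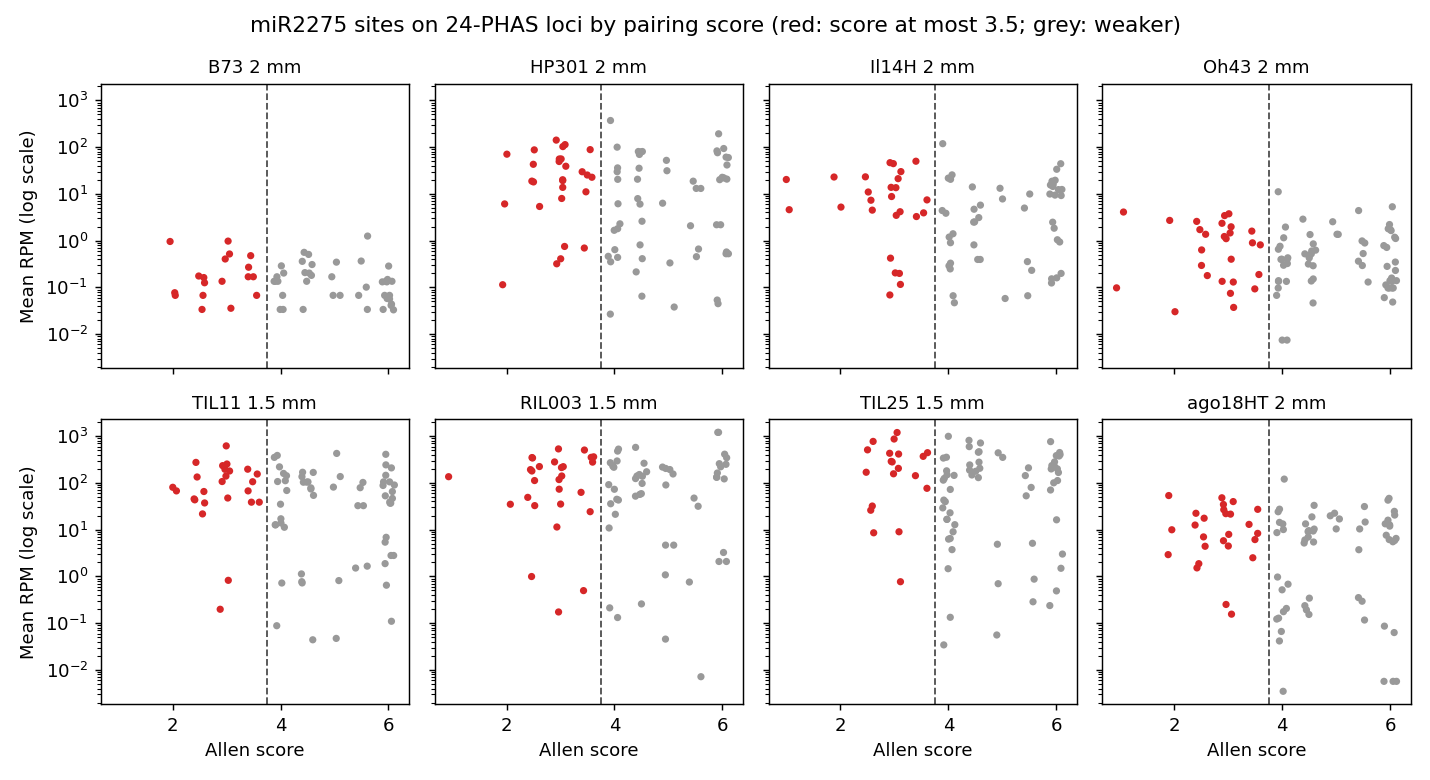
Mean RPM of each listed miR2275 site on 24-PHAS loci (y axis, log scale) by Allen score (x axis, points spread sideways for visibility) at 2 mm (maize and ago18HT) or 1.5 mm (teosintes); red sites have a score of at most 3.5 and grey sites are weaker. Both kinds span several orders of magnitude, with medians of 21.4 and 4.32 RPM in HP301 and 80.5 and 35.9 RPM in TIL11.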

How the data were processed

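Smart-seq2 and nanoPARE libraries were made from total RNA of each anther sample. The authors ran the nanoPARE pipeline per sample and deposited 1 miRNA table for each of 63 samples. The RPM deposited by the authors is the number of RNA 5′ ends at a site, scaled to library size. The authors' Allen score penalises mismatches to the small RNA. The adjusted p-value deposited by the authors comes from the EndCut step. Their ratio of site to background and the phasiRNA tables were not used here. B73 and ago18 reads were mapped to B73 RefGen_v5, RIL003 reads to the RIL003 genome and the others to version 1 assemblies. For RIL003 the authors assembled the transcriptome from their own anther data. The version of the pipeline is not given in the sources used here.

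Depth per library (1.35 to 18.7 M reads) was recovered from the commonest RPM value, taken as 1 read. At that scale 84.6% of values, and 68.0% of member values, were whole to within 0.01 of a read, so the values were not treated as counts. Unlisted sites were set to 0. All distinct sites (target and cut position) listed in at least 2 libraries of a fit were tested with limma 3.58.1 (R 4.3.3; lmFit, eBayes with trend) on log2(RPM + 0.5), with Benjamini-Hochberg adjustment over all sites at 0.05. B73, HP301, Il14H, Oh43 and TIL25 were fitted on their 2 groups, the others on all groups of the variety or of ago18. Sites outside PHAS loci are those whose target name holds no PHAS label. Transcripts of 1 gene are separate targets, so sites outside PHAS loci can repeat. The log2 differences of sites unlisted throughout a group depend on the pseudocount and are no bounds. The script was tested on simulated data.

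Alternatives were pseudocounts of 0.1 and 1, no filter on listing, score limits of 3 and 4, a cut-site p below 0.01, no trend, centring on sites outside PHAS loci, the replicate number as a block, and each library left out. Loci named in the text were the 3 with the highest mean in each maize and ago18HT 2-mm group and teosinte 1.5-mm group, those of the premeiotic class, up to 5 that passed in at least 2 replicates of the shortest length, for each ago18HM and ago18HT comparison up to 5 called loci or else the 3 highest, and up to 2 at each side of the score limit. Loci shared between varieties and those said to be chosen after their values were seen are additions. The members and lists were chosen with earlier results of these data known. Positions, classes and sequences came from the study's locus and miRNA annotation, and those of RIL003 and TIL25 loci were not used here. miRNA names that fit several sequences were not matched.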

Additional observations from a re-analysis of the deposited data

How the results depend on the processing

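Counts are members called by limma, and causes of changes were not tested unless named. With a pseudocount of 0.1, calls were 1 in B73, 8 in Oh43, 13 in ago18HT 2 against 0.5 mm and 10 in ago18HT 5 against 2 mm; with 1, they were 12 in HP301, 3 in Oh43, 4 and 0 in those ago18HT comparisons. Without the filter on listing, 14 were called in Oh43 and 0 in both ago18HT comparisons. Without the trend, 3 were called in Oh43, 1 in ago18HT 2 against 0.5 mm and 0 in 5 against 2 mm. A score limit of 4, which adds sites, gave 26 in Il14H, 36 in TIL25, 37 in each TIL11 comparison and 2 in ago18HT 5 against 2 mm. Centring gave 2 in B73, 15 in Oh43, 26 and 24 in the ago18HT comparisons and 24 lower in ago18HM than in ago18HT at 2 mm. In ago18 it rests on 16 sites and moved the median of all sites to 0.93 in ago18HT 2 against 0.5 mm and -0.38 in the genotype comparison at 2 mm, and in RIL003 to 0.98, and 79.1% of all sites in that ago18HT comparison and 65.9% in RIL003 were then called higher.

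Same-numbered replicates of different groups were correlated between -0.14 and 0.13 over 43 pairs, 1 of them above 0.1, so the number was not taken as a pairing. With the replicate block, calls were 9 in Oh43, 22 in ago18HT 2 against 0.5 mm and 6 in ago18HT 5 against 2 mm. It changed no other call by over 1.5 times, and the crossed pairing of HP301, added after seeing the data, gave 23 calls.

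Leaving out 1 library gave 8 to 13 calls in HP301, 4 to 13 in Il14H, 0 to 14 in Oh43, 0 to 26 in ago18HT 2 against 0.5 mm, 0 to 25 in ago18HT 5 against 2 mm and 0 to 24 in ago18HM against ago18HT at 2 mm. Where an arm is left with 1 sample, limma assumes that it varies like the others. Entries passing the cut-site test numbered 608, and 466, 499 and 885 at p below 0.01 and score limits of 3 and 4. No TIL11 member was listed in every 1.5- and 2-mm library, so that alternative gave no value, and it left 1 ago18 member with 0 calls. With sites unlisted throughout a group set to 3 reads per library, median log2 ratios of group means were 6.20 in HP301, 5.50 in Il14H, 1.92 in Oh43, 1.06 in B73, 8.24 in TIL25, 9.71 in RIL003, 8.32 in TIL11 at 1.5 mm, -9.07 in TIL11 at 2 mm, 5.45 in ago18HT at 2 mm and -6.06 in ago18HM against ago18HT at 2 mm. Depth limits all values near 1 RPM.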
